A study of Mus musculus with 4 samples.

Results

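The B cells described here are the 322 cells named B cells in the authors' joint annotation of 2 mouse tumour libraries, out of 19891 cells. Of these, 220 were among the 6870 cells of the B16 library and 102 among the 13021 cells of the LLC library. B16 is a melanoma line and LLC a Lewis lung carcinoma line, both grown under the skin, and each library is a pool of tumours from 3 mice run on the 10x Genomics platform. The B16 library came from C57BL/6J mice and the LLC library from mice of the genotype F11r fl/fl LysM-Cre-, which carry the floxed F11r allele without the Cre driver. Tumour, mouse genotype and library therefore cannot be told apart in any difference below. A further LLC library, made by CITE-seq, was not used here. The labels name no drug treatment.

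B cells are the lymphocytes that carry an immunoglobulin on their surface as antigen receptor, held in the membrane with the signalling pair CD79A and CD79B. Mature naive B cells carry IgM and IgD together, circulate through lymph nodes and spleen, and present antigen on MHC class II. After activation they can switch to IgG, IgA or IgE and can become memory cells or antibody-secreting plasma cells. In tumours they are found scattered or in lymphoid aggregates with T cells.

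Every expression level is the sum of a gene's unique molecular identifiers (UMIs, each marking 1 captured RNA molecule) over the B cells of a library, scaled to counts per 1e6 UMIs of those cells (CPM). Ratios are B16 over LLC unless stated, with exact 95% intervals in brackets that cover counting error only. Each tumour is 1 library, so no difference has a replicate check and no p-value is given. A gene is called higher or lower when the ratio reaches 1.5-fold and it has at least 20 UMIs over both sides, which is a rule of size alone. A rank among clusters, or a next cluster, takes only clusters of at least 20 cells in the library. This leaves out the 3 plasma cells of LLC.

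A pair of promoter elements relates to the gene groups that the results turn on. The octamer ATGCAAAT is the site bound by OCT factors, which act with the B cell coactivator encoded by Pou2af1. The element written as GAAA, any 2 bases and GAAA again is the core of the interferon-stimulated response element. Both were searched on both strands in RefSeq promoters (GRCm38.p6, from 250 bases before to 50 after each start). A gene was counted if any of its promoters held the element. The octamer occurred in 1.74% of 32851 promoters and for 1.97% of 27025 genes. Among the 25 B cell identity genes 20 had a promoter there, and Vpreb3 alone of these held it. The interferon element occurred in 3.44% of all promoters and for 3.99% of all genes. It occurred for 18 of the 30 matched genes among the 42 interferon response genes. The following stretches of 150 bases end at the base before the start site, with the element in capitals. Vpreb3 is shown as a gene whose RNA was highest in B cells among the clusters of at least 20 cells in both libraries. It stood at 471 CPM in B16, where plasma cells held 155 CPM, and at 368 CPM in LLC. Igtp and Gbp7 are shown as interferon genes called higher in B16 over all B cells, and Trim30a as an interferon gene called lower. Neither Igtp nor Gbp7 was called higher once B cells with markers of other lineages were left out, as given below.
Vpreb3: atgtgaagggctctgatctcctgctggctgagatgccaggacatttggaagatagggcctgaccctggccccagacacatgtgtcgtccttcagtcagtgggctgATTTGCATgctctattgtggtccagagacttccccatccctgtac
Igtp: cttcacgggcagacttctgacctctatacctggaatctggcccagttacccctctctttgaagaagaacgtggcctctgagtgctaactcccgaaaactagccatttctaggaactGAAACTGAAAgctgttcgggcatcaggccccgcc
Gbp7: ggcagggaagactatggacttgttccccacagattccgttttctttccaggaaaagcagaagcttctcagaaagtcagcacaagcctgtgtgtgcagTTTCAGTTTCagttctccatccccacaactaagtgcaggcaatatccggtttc
Trim30a: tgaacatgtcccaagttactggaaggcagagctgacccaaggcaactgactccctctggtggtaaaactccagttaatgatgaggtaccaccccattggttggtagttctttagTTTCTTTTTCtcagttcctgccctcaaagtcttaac
These lie at chr10:75948150-75948299 (plus strand), chr11:58199406-58199555 (plus), chr3:142530186-142530335 (plus) and chr7:104465194-104465343 (minus). None of the 4 overlaps an exon of GENCODE vM21. The Vpreb3 stretch lies within a longer GENCODE gene model, which starts at base 75943057. The elements begin 45, 34, 53 and 36 bases before the start. A match describes these letters and does not show that a factor binds there.

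The name B cells held up against its markers in both libraries. Cd79a, for the CD79A signalling chain, had 2872 CPM in B16 B cells and 2571 CPM in LLC B cells, with a UMI in 220 of 220 and 99 of 102 cells. All other cells held 8.96 and 1.12 CPM. Ms4a1, for CD20, stood at 924 and 1040 CPM, which was 860-fold and 4060-fold the level in other cells. Pax5, the transcription factor that fixes B cell identity, stood at 262 CPM in B16, in 117 of 220 cells. The LLC library held no UMI of Pax5 in any of its 13021 cells. The same was true of 1517 of the 13071 genes of the joint table, and genes with LLC UMIs were found in at least 3 LLC cells. Of these 1517 genes, 31 had at least 20 UMIs in B16 B cells. Among them were Fcer2a for CD23 (227 CPM), Tnfrsf13c for the BAFF receptor (208 CPM), Pou2af1 (178 CPM), Blk for a receptor-linked kinase (143 CPM), and Cr2 and Cxcr5 (both 64.8 CPM). No ratio between tumours was taken for such genes.

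Ranked against all other cells of the same library, the 15 leading genes in both libraries were Ms4a1, Ebf1, Fcmr, Cd79a, Scd1, Vpreb3, Bank1, Cd79b, Siglecg, Ly6d, Spib, Chst3, H2-Ob, Cd22 and Cd55. These describe what the clustering could use and are no test of it. Ebf1, for the early B cell factor that acts with PAX5, was 777-fold and 4741-fold the level in other cells, and Fcmr, for the IgM Fc receptor, 641-fold and 5120-fold. Scd1, a fatty acid desaturase gene not restricted to B cells in the body, had 175 and 229 CPM, while other cells held 0.880 and 1.09 CPM. Plasma cells, the nearest relatives, were the next cluster for Cd79a in B16 at 322 CPM. Ly6d was shared with plasmacytoid dendritic cells (pDC), which held 1961 and 1873 CPM against 2104 and 1989 CPM in B cells. Spib, a transcription factor used by both cell types, was lower in B cells (166 and 158 CPM) than in pDC (185 and 235 CPM). Over the whole table, 2663 of 11228 genes (23.7%) were higher and 3299 (29.4%) lower in B16 B cells than in other B16 cells. In LLC the counts were 4163 of 11263 (37.0%) higher and 3020 (26.8%) lower, and 2014 genes were higher in both libraries. Proliferation genes were lower in B cells for 18 of 18 in B16 and 12 of 18 in LLC, and hypoxia and glycolysis genes for 20 and 18 of 22.

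B cells were among the shallower cells. Their median depth was 2432.5 UMIs in B16 and 1895.5 in LLC, against 8315 and 6174 over all cells and 3736 and 2455 in naive T cells. In total they held 740999 and 266407 UMIs. A smaller set of deeper cells also carried markers of another lineage. At least 10 UMIs of 1 of 9 marker groups (T cell, NK cell, monocyte and macrophage, neutrophil, dendritic cell, platelet, red cell, epithelial and melanocyte) were found in 31 of the B16 B cells (14.1%) and 18 of the LLC B cells (17.6%). A fixed count is reached more readily in deep cells, so depth is partly built into this rule. These mixed-marker cells had medians of 7539 and 4791 UMIs and held 34.7% and 32.2% of all B cell UMIs. Their leading group in B16 was T cell markers in 17 cells and monocyte and macrophage markers in 11, NK cell markers in 2 and neutrophil markers in 1. In LLC it was monocyte and macrophage markers in 8, neutrophil markers in 6, T cell markers in 2 and platelet markers in 2. Their median count of B cell marker UMIs was 26 and 15, against 23 and 15 in the other B cells. Of the mixed-marker cells, 16 of 31 and 8 of 18 were also among the 6% of cells of their library with the highest doublet score, a class that held 9.09% and 9.80% of all B cells. Ratios between tumours are over all B cells unless stated, and the list counts and the genes the results turn on are also given without the mixed-marker cells. The calls over all genes are the background for every list. Over all B cells 17.6% of 5397 measured genes were higher in B16 and 13.8% lower, with a median log2 ratio of 0.05. Without mixed-marker cells it was 15.1% and 11.9% of 3897 genes, with a median of 0.02.

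**Figure D1:**
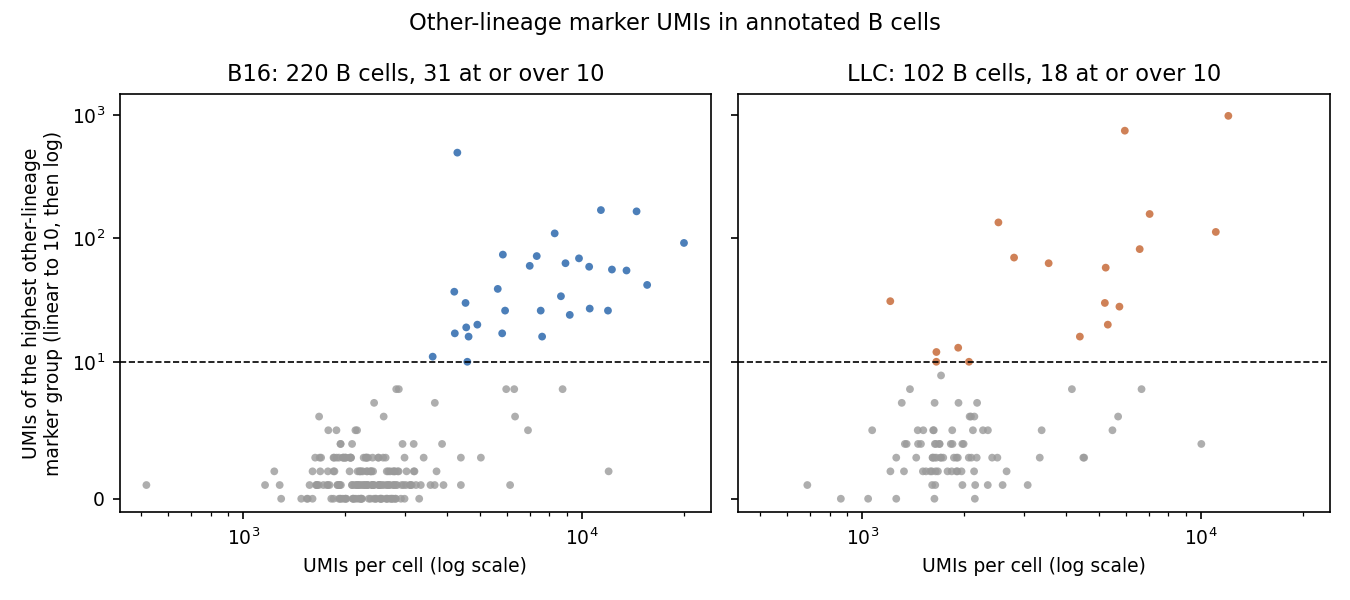
Each point is 1 B cell, with its total UMIs (log axis) against the UMIs of its highest other-lineage marker group (linear to 10, then log), for B16 on the left and LLC on the right. The dashed line marks 10 UMIs, and the 31 B16 and 18 LLC cells at or above it are coloured and lie mostly to the right, among the deeper cells.

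Markers of other lineages stood at different levels in the B cells of the 2 libraries. Mixed-marker cells were picked by these same markers, plasma cell markers aside, so lower levels without those cells follow from that choice. Summed T cell markers (Cd3d, Cd3e, Cd3g and Trac) stood at 841 CPM in B16 B cells and 188 CPM in LLC B cells, and at 76.4 and 0 CPM without the mixed-marker cells. Neutrophil markers (S100a8, S100a9 and Retnlg) stood at 721 and 7999 CPM, and at 35.1 and 410 CPM without them. In LLC, 87.8% of those neutrophil UMIs were in 3 cells, and the highest cell held 988. Monocyte and macrophage markers stood at 1587 and 3048 CPM, and at 638 and 1523 CPM without mixed-marker cells, against 9841 and 27468 CPM in other cells. NK cell markers stood at 260 CPM in B16, with 96.9% of their UMIs in 3 cells, and at 16.5 CPM without mixed-marker cells, while all 3 were at 0 in LLC. The 4 dendritic cell markers Xcr1, Clec9a, Cd209a and Siglech were at 0 in B cells of both libraries. Plasma cell markers stood at 436 and 664 CPM, and at 454 and 731 CPM without mixed-marker cells, with Tnfrsf17 at 0 in both. Melanocyte markers gave 27 UMIs spread over 23 B16 B cells, at most 2 per cell, and 0 in LLC. Platelet markers stood at 169 and 634 CPM, and at 12.4 and 83.1 CPM without mixed-marker cells. Over all B cells red cell and epithelial markers were at 12.1 CPM or less in both libraries.

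The share of B cells was 3.20% (2.80-3.65) in B16 and 0.783% (0.639-0.95) in LLC. Within lymphocytes the order was the other way. B cells were 6.82% (5.97-7.74) of 3228 T, NK, B and plasma cells in B16 and 19.5% (16.2-23.1) of 524 in LLC, a ratio of 0.350 (0.276-0.447). The authors' separate annotation of B16 alone gave the same name to 197 of the 220 B16 B cells. Of the rest, 19 were not listed there and 4 had a monocyte or macrophage name. Of 29 cell barcodes that the libraries share, 1 belonged to a B16 B cell and 0 to an LLC B cell.

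Immunoglobulin RNA was of the unswitched kind in nearly all B cells of both tumours. Ighm, the IgM heavy chain constant gene, had 2572 CPM in B16 B cells and 2924 CPM in those of LLC (0.880, 0.809-0.957), and a ratio of 0.887 (0.808-0.975) without mixed-marker cells. Ighd, the IgD constant gene, stood at 760 and 728 CPM, a ratio of 1.04 (0.885-1.23), and was 442-fold and 2437-fold the level in other cells. A UMI of both was found in 170 of 220 B16 and 81 of 102 LLC B cells, and 3 and 2 cells held neither. At an equal depth of 1000 UMIs, 54.3% (47.5-61.1) of B16 and 53.0% (42.8-63.1) of LLC B cells held an Ighd UMI, against 0.406% and 0% of naive T cells. Unthinned, naive T cells held an Ighm UMI in 37.1% of B16 and 20% of LLC cells, at 137 and 104 CPM, so a single Ighm UMI does not mark a cell by itself.

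Switched constant genes were sparse. At least 10 UMIs of them were held by 4 B16 and 2 LLC B cells. Igha, the IgA constant gene, had 63 UMIs in 41 B16 B cells (85.0 CPM) and 44 UMIs in 5 LLC B cells (165 CPM), of which 95.5% were in 3 cells. The ratio was 0.515 (0.345-0.775), and 0.390 (0.252-0.603) without mixed-marker cells. In B16 this level lay below that of all other cells, 1690 CPM, which include 54 plasma cells at 82501 CPM, while naive T cells held 59.8 CPM. In LLC, with 3 plasma cells, other cells held 25.96 CPM. Ighg2c gave 43 UMIs and Ighg2b 14 UMIs in B16 B cells, both below their level in other B16 cells (316 and 179 CPM), and neither had a UMI in the LLC library. Ighg1 had no UMI in the B16 library, so its 0 in B16 B cells sets no limit. It was also at 0 in LLC B cells, where a floor of 3 UMIs allows up to 11.3 CPM, and at 10.2 CPM in other LLC cells.

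Plasma cell genes differed in both directions. Of 6 measured 1 was higher in B16 (16.7%) and 1 lower (16.7%), close to the shares over all genes, with a median log2 of 0.19. Without mixed-marker cells 1 of 5 was higher (Irf4, 1.86, 0.625-7.50) and 2 were lower (Xbp1 and Mzb1), with a median of -0.24. Xbp1, a factor needed for antibody secretion, was at 0.438 (0.268-0.723) in all B cells and 0.574 (0.272-1.26) without mixed-marker cells. Jchain, the joining chain of secreted IgM and IgA, was the higher gene, with 21 UMIs in B16 and 1 UMI in LLC (7.55, 1.21-312). Its 28.3 CPM in B16 B cells, in 8.64% of cells, lay near the 20.2 CPM and 8.08% of naive T cells of that library, and its 3.75 CPM in LLC near the 4.17 CPM of naive T cells there. Neither level sets B cells apart from naive T cells, and the LLC level rests on 1 UMI. The source of these UMIs was not tested. Plasma cells held 45685 and 33688 CPM.

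Most B cells of both tumours used the kappa light chain. Igkc stood at 9803 and 10465 CPM, a ratio of 0.937 (0.897-0.979). Kappa UMIs outnumbered lambda UMIs in 195 of 220 B16 and 83 of 102 LLC B cells. Lambda led in 24 cells of B16, 10.9% (7.12-15.8), and in 19 of LLC, 18.6% (11.6-27.6). LLC over B16, that share had a ratio of 1.71 (0.884-3.25), and of 1.80 (0.872-3.66) without mixed-marker cells, so the intervals hold 1. Lambda UMIs were not confined to lambda-leading cells, since 193 of 195 kappa-leading B16 cells and 80 of 83 in LLC held at least 1, at 22.2% and 16.9% of their light chain UMIs. In naive T cells Iglc2 and Iglc3 had 3.30 and 0 CPM in B16 and none of either in LLC. Against this, B16 B cells held 1842 and 1100 CPM, and LLC B cells 1483 and 950 CPM. Lambda RNA was not restricted to B cells, however. The Iglc3 level of B cells was only 1.18-fold (B16) and 1.32-fold (LLC) that of pDC, the next cluster. B16 plasma cells exceeded B cells for Iglc1 (30653 against 1205 CPM) and Iglc2 (7439 CPM). In LLC, B cells were 36.1-fold and 45.7-fold above pDC, the next cluster of at least 20 cells for these 2 genes. The 3 LLC plasma cells were left out of that order. They held 204314 CPM of Igkc, against 10465 CPM in LLC B cells. Iglc1, Iglc2 and Iglc3 are near-identical copies, so the split of UMIs among them is uncertain and lambda was taken as their sum. No member of the immunoglobulin list was higher and Igha alone of 7 measured was lower, both over all B cells and without mixed-marker cells.

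**Figure D2:**
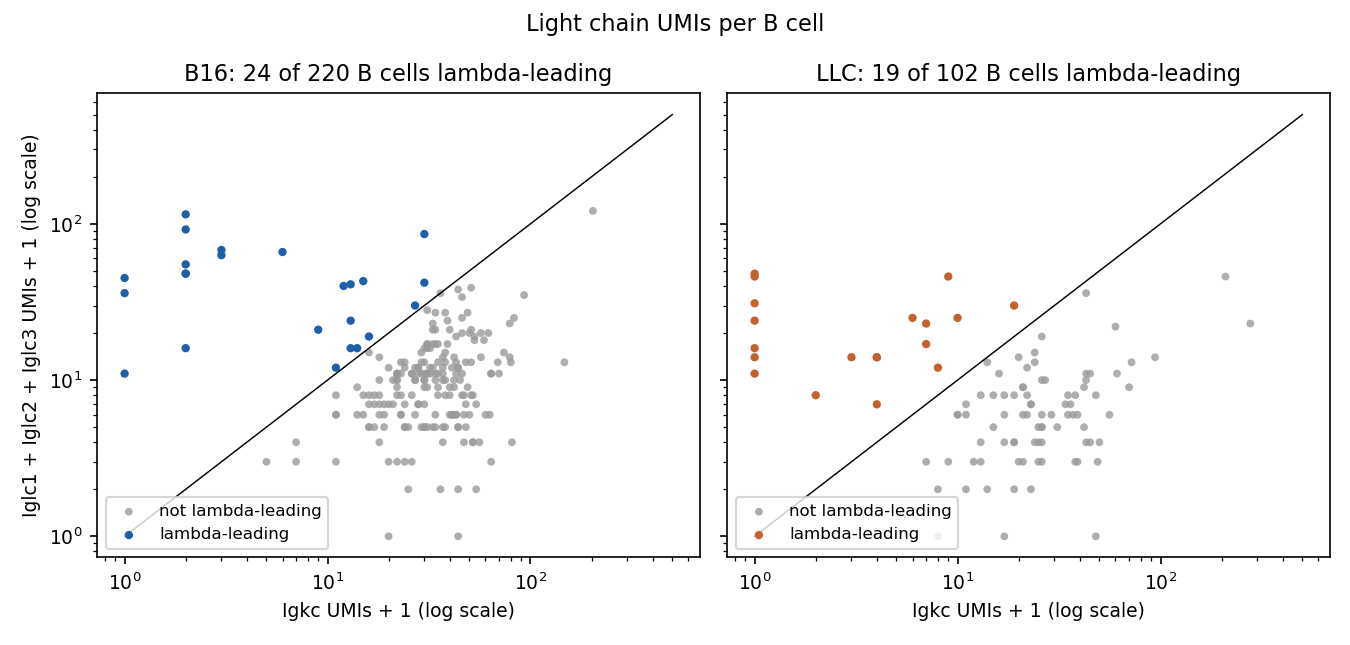
Each point is 1 B cell, with its Igkc UMIs plus 1 against the summed Iglc1, Iglc2 and Iglc3 UMIs plus 1, both on log axes, for B16 on the left and LLC on the right. Coloured points above the diagonal are the 24 B16 and 19 LLC lambda-leading cells, of which 21 and 12 held a kappa UMI.

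Of 12 measured naive follicular genes, 2 were higher in B16 (16.7%, against 17.6% of all genes) and 0 lower, with a median log2 ratio of 0.09. The counts were 2 and 0 of 12 without mixed-marker cells as well (0.15). Ccr7, the receptor that guides cells into lymph node T zones, stood at 209 CPM in B16 B cells and 169 CPM in those of LLC, and Klf2, a factor that keeps lymphocytes quiescent and circulating, at 1003 and 1130 CPM. At 1000 UMIs per cell Ccr7 was found in 21.5% and 15% of cells and Klf2 in 58.0% and 61.0%. The survival gene Bcl2 was higher in B16, at 165 and 90.1 CPM (1.83, 1.17-2.96), and at 1.49 (0.880-2.66) without mixed-marker cells. Hhex was higher as well (1.52, 0.888-2.76), and at 1.86 (0.993-3.81) without mixed-marker cells. Mki67, a marker of dividing cells, had a UMI in 9 of 220 B16 and 1 of 102 LLC B cells (4.09% and 0.980%). At 1000 UMIs per cell, where fewer cells show a gene, it was found in 0 of 219 and 0 of 100. The upper limits of 1.67% and 3.62% hold for that depth only and do not cap the share of dividing cells. Top2a was found in 12 of 220 and 3 of 102 cells, and in 2.28% and 0% at equal depth. Of 18 proliferation genes 5 reached 20 UMIs, with Top2a alone higher (1.53, 0.498-6.24), and 2 without mixed-marker cells, with 0 higher or lower. Of 12 germinal centre genes 3 were not analysed here, 3 had no UMI in a whole library and 5 were under 20 UMIs. The remaining gene, Basp1, was lower in B16, with 87.2% and 84.3% of its UMIs in mixed-marker cells. Of 11 early B cell genes 5 were not analysed here and 2 had no UMI in a whole library. Of the 4 measured, Il7r, Sox4 and Lef1 were higher in B16 (75%, against 17.6% of all genes) and Cd93 lower (25%, against 13.8%). The interval left out 1 for 0 of the 3 higher genes. Without mixed-marker cells Sox4 alone was measured (2.98, 0.906-15.5).

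Of 9 measured genes of marginal zone and B1 cells, the innate-like B cells, 1 was higher in B16 and 5 were lower (55.6%, against 13.8% of all genes), with a median log2 of -0.64. Of the 5, 3 had an interval that left out 1. Without mixed-marker cells 5 were measured, of which 0 were higher and 4 lower (80%, against 11.9% of all genes), and 2 of the 4 had an interval that left out 1. Mzb1, which helps fold IgM, stood at 350 and 522 CPM (0.670, 0.543-0.829) and at 0.588 (0.464-0.749) without mixed-marker cells. Ahnak stood at 159 and 267 CPM (0.598, 0.441-0.814), with 78.0% and 74.6% of its UMIs in mixed-marker cells. Notch2, the receptor needed for marginal zone fate, stood at 67.5 and 105 CPM (0.642, 0.396-1.06), and Bhlhe41, a B1 cell factor, at 32.4 and 60.1 CPM (0.539, 0.275-1.09). Without mixed-marker cells Bhlhe41 was at 0.346 (0.150-0.794). Cd9 (0.163) and Itgam (0.232) lay further out, and both are also macrophage or granulocyte genes, at 0.226 and 0.242 in other cells. Cd5, the higher gene, is a T cell gene too, and 82.1% of its 28 B16 UMIs were in mixed-marker cells. Of 6 measured memory and age-associated genes 1 was higher and 2 lower (16.7% and 33.3%, against 17.6% and 13.8% of all genes). Cxcr3 was higher, and Zeb2 (0.360, 0.275-0.471) and Cd44 (0.385, 0.264-0.562) were lower. Without mixed-marker cells 0 of 5 were higher, and Zeb2 and Cd44 were lower (40%, against 11.9% of all genes), at 0.601 and 0.414.

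MHC class II genes stood at nearly the same level in both tumours. H2-Aa, a class II alpha chain, held 4096 CPM in B16 and 3491 CPM in LLC B cells (1.17, 1.09-1.26), and a ratio of 1.19 (1.09-1.29) without mixed-marker cells. Cd74, the invariant chain, held 12713 and 12151 CPM (1.05, and 1.08 without them). In other cells H2-Aa was 2.71-fold higher in B16. Of the 14 measured class II genes, 12 lay between the bounds in B cells (13 without mixed-marker cells). H2-Eb2 was higher and the protease gene Lgmn lower, the latter at 0.797 without mixed-marker cells. These were 7.14% each, against 17.6% and 13.8% of all genes. Without mixed-marker cells the shares were 7.14% higher and 0% lower, against 15.1% and 11.9%. H2-Aa in B cells was 0.386 and 0.371 times the level of cDC2, the dendritic cells with 10610 and 9417 CPM. H2-Ob and H2-Oa encode the DO complex, which restrains peptide loading, and B cells ranked first for both among the clusters of each library. H2-Ob had 364 and 372 CPM, and cDC1, the next cluster, 124 and 116 CPM. H2-Oa was nearly shared with cDC2, the next cluster, at 1.07-fold and 1.17-fold the cDC2 level, which is under the 1.5-fold bound.

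Cd40, for the receptor through which T cells help B cells, had 58.0 CPM (42.0-78.2) in B16 B cells and 41.3 CPM (20.6-73.9) in those of LLC, from 43 and 11 UMIs. The ratio was 1.41 (0.713-3.02), and 1.86 (0.816-4.97) without mixed-marker cells. B cells ranked 5 of 23 clusters in B16 and 3 of 21 in LLC, below mature migratory dendritic cells (migDC) at 246 and 200 CPM. At equal depth 5.02% (2.53-8.81) of B16 and 2% (0.243-7.04) of LLC B cells held a Cd40 UMI, against 0.271% and 0% of naive T cells. The costimulatory ligand genes were low. Cd86 had 31.0 and 48.8 CPM, below the 271 and 172 CPM of migDC, and Cd80 at 3 UMIs and 1 UMI. Cd83, an activation marker, had 116 and 86.3 CPM, below the 718 and 846 CPM of migDC.

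Of 5397 genes measured in B cells of the 2 tumours, 952 (17.6%) were higher in B16 and 746 (13.8%) lower, with a median log2 ratio of 0.05. Other cells gave 18.4% and 15.7%, and naive T cells 11.1% and 15.5%. With an interval that also leaves out 1, the shares in B cells were 5.11% and 6.24%. The largest differences were in genes of other cell types. Those highest in B16 were Gzma, Nkg7, AW112010, Tnfrsf4, Cd3g, Ikzf2, Xcl1, Gzmb, Bcl2a1b, Lck, Inpp4b, Cd8b1, Cd3d, Klrd1 and Ctla4, of which many are T and NK cell genes. Those highest in LLC were Ppbp, G0s2, Retnlg, Thbs1, Spp1, Hmox1, Cxcl3, Slc7a11, Mmp12, Wfdc21, S100a9, Lcn2, Il1b, Cdkn1a and S100a8, of which many are neutrophil, platelet and macrophage genes.

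Gzma, a cytotoxic granule protease gene, had 176 UMIs in 5 B16 B cells, 98.9% of them in 3 cells, and 0 UMIs in LLC, and was at least 21.1-fold higher in B16. S100a9 had 406 CPM in B16 B cells and 4640 CPM in those of LLC, where 89.3% of UMIs were in 3 cells. For each of these 30 genes at least 50% of the UMIs in the higher library were in mixed-marker cells, and all 30 differed in the same direction in other cells. Gzma, Cd3g, Cd3d, Ppbp, Retnlg, S100a9 and S100a8 are among the markers that define mixed-marker cells. For these genes the concentration there, and the fall without those cells, are built into that choice. Without the mixed-marker cells, 588 of 3897 genes were higher in B16 (15.1%) and 463 lower (11.9%), and 2.85% and 3.62% with an interval that left out 1. Of the 15 named B16 genes 4 were then still measured and higher, and 11 fell under 20 UMIs. The 4 were AW112010 at 238 and 72.0 CPM (3.30, 1.85-6.38), Xcl1, Bcl2a1b and Inpp4b. Of the 15 LLC genes 6 were still measured and lower in B16 (Thbs1, Spp1, Hmox1, Cxcl3, S100a9 and S100a8), and 9 fell under 20 UMIs. S100a9 was then at 16.5 and 266 CPM. The part of other cells' RNA in these values was not tested.

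Genes that B cells hold at 2-fold or more over other cells of both libraries were compared separately. Of 472 such genes, 48 (10.2%) were higher in B16 and 31 (6.57%) lower. Without mixed-marker cells it was 44 (10.5%) and 28 (6.67%) of 420, and 11 (2.62%) and 7 (1.67%) with an interval that left out 1. Highest in B16 by that comparison were Il4i1, Limd2, Fcmr, Apobec3, Bach2, Treml2, Fcrla, Gpr18, Cmah and Dmxl1. Fcmr stood at 707 and 492 CPM, with a ratio of 1.44 (1.19-1.76) in all B cells and 1.60 (1.29-1.99) without mixed-marker cells. Apobec3, a restriction factor against retroviruses, stood at 489 and 285 CPM (1.71, 1.33-2.22), and at 1.70 (1.28-2.28) without mixed-marker cells. Limd2 stood at 510 and 285 CPM (1.79, 1.39-2.32), and at 1.75 (1.31-2.37) without them. Il4i1, a secreted amino acid oxidase gene, stood at 109 and 33.2 CPM without mixed-marker cells (3.29, 1.42-9.38). Bach2, which holds back plasma cell differentiation, was at 1.36 (0.881-2.16) in all B cells and 2.09 without mixed-marker cells.

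Highest in LLC among these genes were Slamf6, Mzb1, Sorl1, Cd22, Krit1, Snhg12, Helz2, Map4k2, Zmym5 and Eif2ak3. Without mixed-marker cells the intervals of Snhg12, Helz2, Map4k2, Zmym5 and Eif2ak3 held 1. Slamf6, a receptor for contacts between lymphocytes, had 163 CPM in B16 B cells and 319 CPM in those of LLC (0.512, 0.385-0.684), and at 0.531 (0.384-0.739) without mixed-marker cells. The direction was the reverse in other cells as a whole (3.41), and naive T cells gave 0.855. Cd22, an inhibitory receptor of the antigen receptor, stood at 155 and 233 CPM (0.667, 0.486-0.923), and at 0.635 (0.449-0.906) without mixed-marker cells. Sorl1, a sorting receptor gene, stood at 81.0 and 173 CPM (0.469, 0.314-0.704), and at 0.463 (0.286-0.756) without them.

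Among the 18 measured B cell identity genes, Cd72 alone was higher over all B cells, at 242 and 120 CPM (2.01, 1.37-3.03), and none was lower, with a median log2 of 0.04. Those shares, 5.56% and 0%, lay below the 17.6% and 13.8% of all genes. Without mixed-marker cells 3 of the 18 were higher (16.7%, against 15.1% of all genes) and 1 was lower, with a median of 0.07. These were Cd72 (1.68, 1.12-2.58), Fcmr and Fcrla (1.51, 1.12-2.06), an intracellular Fc receptor-like gene, and on the lower side Cd22, and the interval left out 1 for all 4. Over all B cells Cd79a (1.12, 1.02-1.22), Cd79b (1.07, 0.966-1.19), Ebf1 (1.07, 0.942-1.22) and Ms4a1 (0.889, 0.772-1.03) lay close to 1.

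**Figure D3:**
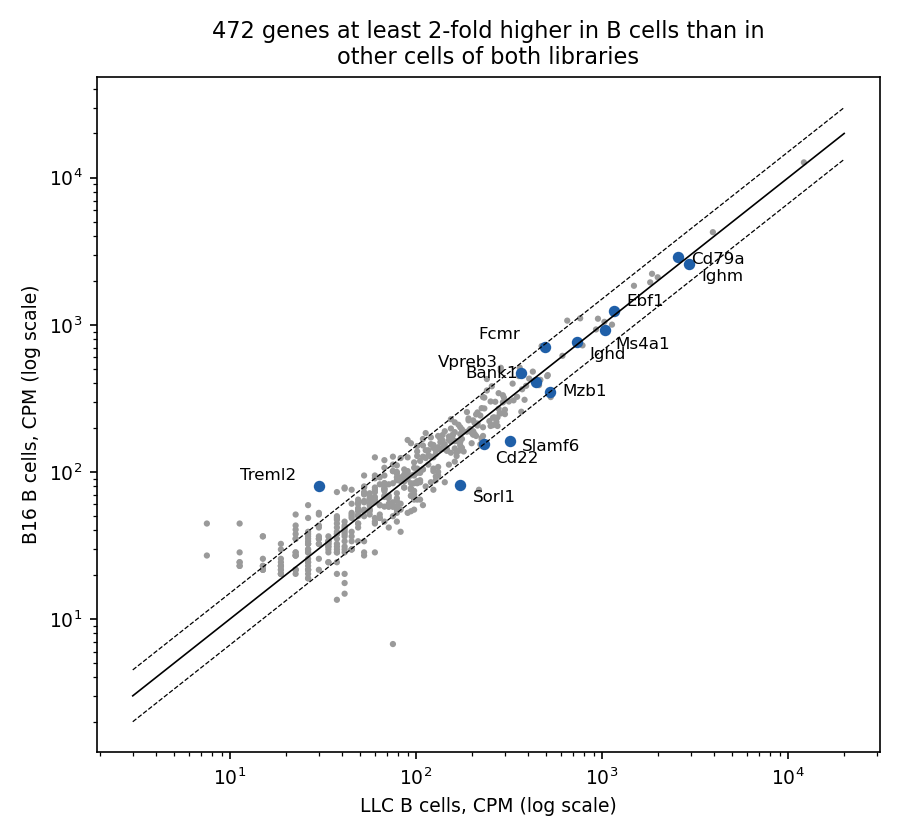
Each point is 1 of 472 genes at least 2-fold higher in B cells than in other cells of both libraries, with its CPM in LLC B cells against that in B16 B cells, both on log axes, and labelled genes in blue. The solid line marks equal levels and the dashed lines 1.5-fold, and most genes, Cd79a, Ebf1 and Ms4a1 included, lie between them, with Slamf6 and Sorl1 below and Treml2 above.

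The floxed gene F11r lies on chromosome 1 from base 171437535 to 171464603 (mm10), and Slamf6 lies 453 kb from it. F11r itself had 2 UMIs in B16 and 10 in LLC B cells. Of 20 measured genes of the SLAM family and the neighbourhood of F11r, 4 were higher in B16 and 4 lower (both 20%, against 17.6% and 13.8% of all genes). The median log2 was -0.02. Without mixed-marker cells it was 3 and 2 of 15 (20% and 13.3%, against 15.1% and 11.9% of all genes), with a median of 0.16. Cd48, 217 kb away, stood at 184 and 97.6 CPM (1.88, 1.23-2.98), and at 1.66 (0.985-2.94) without mixed-marker cells. Slamf7, 168 kb away, stood at 66.1 and 15.01 CPM (4.40, 1.61-16.8), and at 3.11 (0.948-16.1) without them. Ly9, 124 kb away, lay between the bounds (0.924, 0.487-1.86). Fcgr2b, 461 kb away and encoding the inhibitory Fc receptor of B cells, stood at 78.3 and 221 CPM (0.353, 0.242-0.517), and at 0.699 (0.369-1.37) without mixed-marker cells. The shares of this list called in either direction lay near those of all genes, and whether the alleles in this region differ was not tested.

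Among interferon response genes, those higher in B16 B cells outnumbered those lower. Of 32 measured, 21 were higher (65.6%) and 2 lower (6.25%), with a median log2 of 0.85, against 17.6% and 13.8% of all genes. Irf1, a transcription factor induced by interferon gamma, stood at 120 and 37.5 CPM (3.20, 1.66-6.90). Ifi47, an interferon-inducible GTPase gene, stood at 105 and 30.03 CPM (3.51, 1.69-8.40). Gbp2, for a guanylate-binding protein that attacks intracellular pathogens, had 29 UMIs and 1 UMI (10.4, 1.73-426), and Gbp4 60.7 and 18.8 CPM (3.24, 1.29-10.4). The same genes were also higher in other B16 cells, at 3.91 for Irf1, 4.32 for Ifi47, 5.45 for Gbp2 and 10.2 for Gbp4. In naive T cells Irf1 was at 1.21, Ifi47 at 1.29 and Gbp2 at 1.09.

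Without mixed-marker cells 22 interferon genes were measured, 9 higher (40.9%) and 2 lower (9.09%), with a median log2 of 0.47, against 15.1% and 11.9% of all genes. The 9 were Irf1 (3.54, 1.28-13.7), Gbp2 (7.46, 1.19-309), Gbp4 (4.66), Ifi47 (2.98, 1.18-9.69), Rtp4 (2.73), Irgm1 (2.42), Irf7 (2.36), Parp14 (2.03) and Xaf1 (1.72). Of these, 4 had an interval that left out 1. Trim30a, which dampens innate signalling, was lower in B16 both ways, at 113 and 180 CPM (0.629, 0.436-0.917) and at 0.604. Ly6c2, also a monocyte and T cell gene, was higher over all B cells (3.02) and lower without mixed-marker cells (0.456, 0.172-1.24). Compared with other cells of their own library, B cells were lower for 23 of the 42 genes in B16 (54.8%, against 29.4% of all genes). In LLC they were lower for 20 (47.6%, against 26.8%). They were higher for 3 in B16 (7.14%, against 23.7%) and 10 in LLC (23.8%, against 37.0%). The interferon element shown above was found for 6 of 13 matched genes called higher and 2 of 2 called lower. It was found for 4 of 7 of those between and 6 of 8 of those under 20 UMIs. Igtp, with it 34 bases before the start, was at 1.80 (0.868-4.18) in all B cells and 1.28 without mixed-marker cells, and Gbp7 at 2.04 (0.846-5.94) in all B cells. Of the 34 B16 UMIs of Gbp7, 70.6% were in mixed-marker cells, and without them Gbp7 was under 20 UMIs, at 20.7 and 33.2 CPM.

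**Figure D4:**
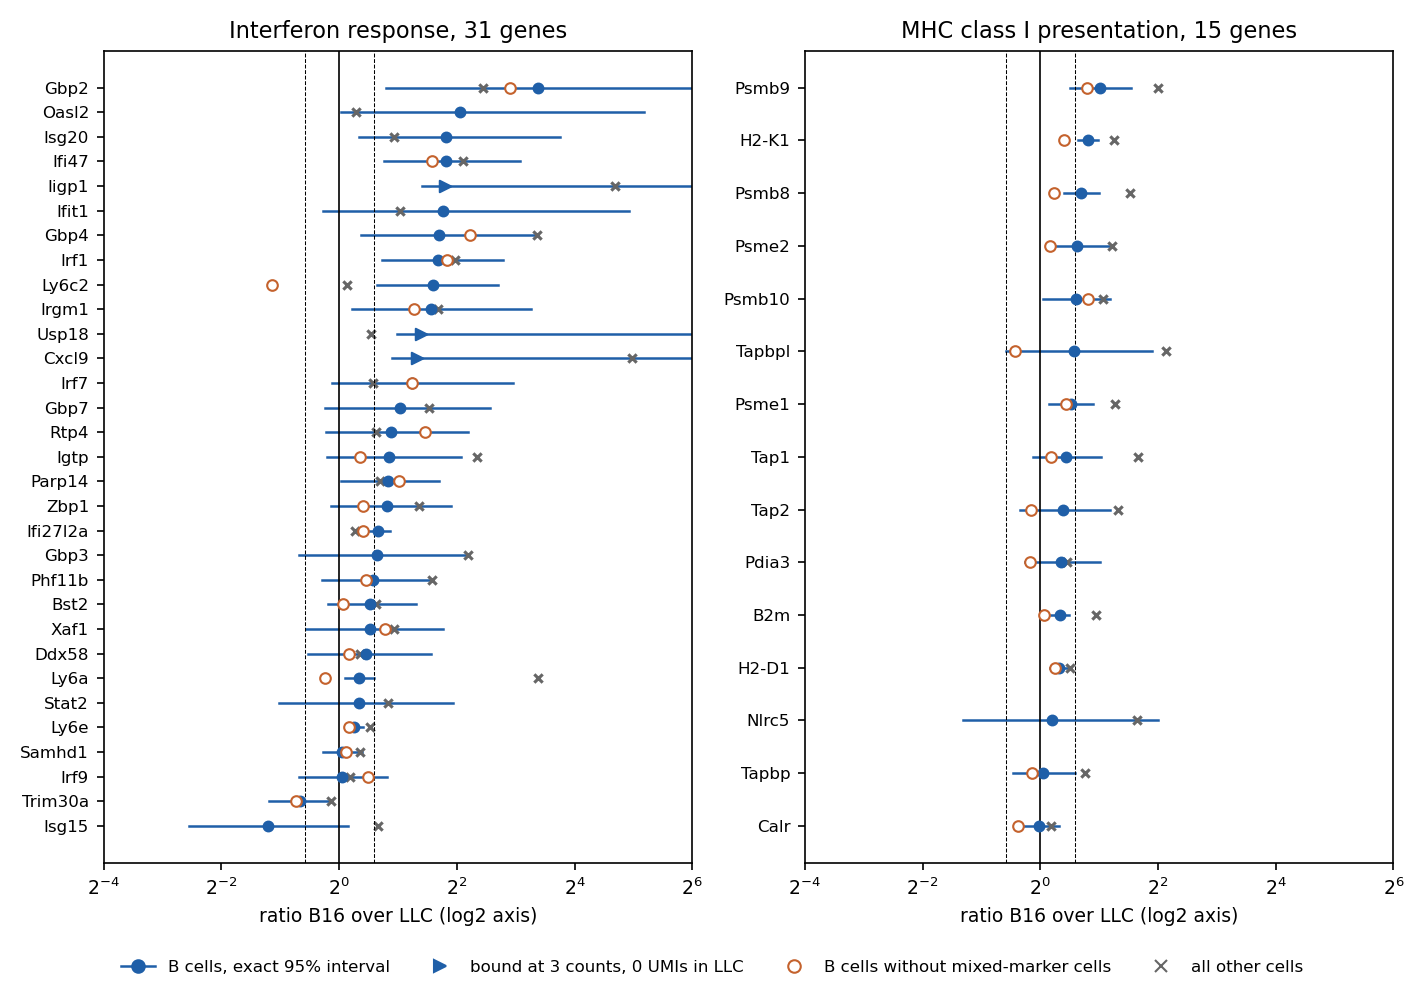
Ratios B16 over LLC on a log2 axis for 31 of the measured interferon genes (left) and 15 measured MHC class I presentation genes (right). Filled points and bars are all B cells with exact 95% intervals, cut at the axis ends, triangles are bounds for genes with 0 LLC UMIs, open circles leave out mixed-marker cells and crosses are all other cells. Most filled points of the left panel lie right of the upper 1.5-fold line, while the open circles of Igtp and Ly6c2 lie left of it.

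Of 15 measured genes of MHC class I presentation 5 were higher in B16 (33.3%, against 17.6% of all genes) and 0 lower, with a median log2 of 0.43. Without mixed-marker cells 2 of 14 were higher (14.3%), a share near the 15.1% of all genes, and 0 lower, with a median of 0.17. H2-K1, a class I heavy chain gene, stood at 2194 and 1254 CPM (1.75, 1.55-1.97), and at 1.32 (1.14-1.52) without mixed-marker cells. The immunoproteasome genes Psmb9 and Psmb10, which tune peptide cutting, were higher both ways. Psmb9 stood at 287 and 143 CPM (2.02, 1.42-2.93) and at 1.74 (1.13-2.76) without mixed-marker cells, and Psmb10 at 1.51 (1.03-2.29) and 1.76 (1.09-2.97). Psmb8 was at 1.61 and 1.18. In other cells Psmb9 was 3.99-fold and H2-K1 2.38-fold higher in B16.

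Of 22 measured signalling genes downstream of the antigen receptor, 6 were higher in B16 (27.3%) and 2 lower (9.09%), against 17.6% and 13.8% of all genes, with a median log2 of 0.08. Without mixed-marker cells 3 and 1 of 20 (15% and 5%) were called, against 15.1% and 11.9% of all genes. The kinase genes Syk (0.749, 0.563-1.004), Lyn (0.668, 0.497-0.905) and Btk (0.736, 0.427-1.31) and the adaptor gene Blnk (0.877, 0.604-1.29) lay between the bounds. Cd81, for a tetraspanin of the B cell co-receptor, was higher, at 221 and 139 CPM (1.59, 1.11-2.34), and at 1.52 (0.975-2.46) without mixed-marker cells. Ifitm3, a membrane protein gene also induced by interferon and expressed by macrophages, was lower both ways, at 275 and 623 CPM (0.442, 0.358-0.546) and at 0.342 without mixed-marker cells. Of 13 measured inhibitory receptors and phosphatases 4 were higher (30.8%) and 2 lower (15.4%), with a median log2 of 0.18. Without mixed-marker cells 2 of 11 were higher (Cd72 and Cblb) and 3 lower (27.3%, against 11.9% of all genes), and the median turned to -0.10. The 3 were Cd22, Inpp5d for the lipid phosphatase SHIP1 (0.604, 0.340-1.09) and Ptpn22 (0.373, 0.183-0.760), a tyrosine phosphatase gene that stood at 0.959 over all B cells.

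Of 18 measured genes of CD40 and BAFF receptor signalling and survival, 6 were higher in B16 (33.3%) and 3 lower (16.7%), against 17.6% and 13.8% of all genes, with a median log2 of 0.32. Without mixed-marker cells 4 of 15 were higher and 1 lower (26.7% and 6.67%, against 15.1% and 11.9% of all genes), with a median of 0.25. The interval left out 1 for 1 of the higher genes. Rel, the c-Rel subunit of NF-kB, stood at 174 and 101 CPM (1.72, 1.13-2.71), and at 2.05 (1.23-3.60) without mixed-marker cells. Traf1, a receptor adaptor gene, was higher (3.00, 1.28-8.55; 1.77, 0.589-7.16, without mixed-marker cells), as was Bcl2a1b, and Nfkb2 lower (0.594, 0.345-1.04; 0.559 without them). Mcl1, a survival gene, stood at 490 and 897 CPM (0.546, 0.463-0.646) but at 0.891 without mixed-marker cells. Of 17 measured activation genes 4 were higher and 6 lower (23.5% and 35.3%, against 17.6% and 13.8% of all genes), with a median log2 of -0.20. Without mixed-marker cells 6 of 10 were higher and 1 lower (60% and 10%, against 15.1% and 11.9% of all genes), with a median of 0.86. The interval left out 1 for 2 of these 6 higher genes. Cd83 was then at 2.21 (1.22-4.33) and Nfkbid, an NF-kB regulator, at 4.29 (1.06-37.5). Egr1, an immediate early gene, was at 0.246 with and 2.36 (0.695-12.5) without mixed-marker cells, which held 92.1% of its 38 LLC UMIs. Cd69, the early activation and retention marker, stood at 309 and 383 CPM (0.807, 0.636-1.03). At equal depth it was found in 20.1% (14.99-26.02) of B16 and 36.0% (26.6-46.2) of LLC B cells, against 17.2% and 19.8% of naive T cells, while the unthinned shares were 49.5% and 52.9%.

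Of 18 measured receptors that guide B cells 3 were higher in B16 (16.7%) and 4 lower (22.2%), against 17.6% and 13.8% of all genes, with a median log2 of -0.04. Without mixed-marker cells 1 of 16 was higher and 4 lower (6.25% and 25%, against 15.1% and 11.9% of all genes), with a median of -0.06. Gpr18 stood at 126 and 60.1 CPM (2.09, 1.22-3.81), and at 1.97 (1.10-3.78) without mixed-marker cells. The integrin gene Itgb1 (0.360, 0.223-0.579; 0.149 without mixed-marker cells), Itgb2 (0.618) and Cd44 were lower, and S1pr1, the receptor for exit from lymphoid organs, was at 1.09 (0.758-1.59). Among cytokine genes, 3 of 6 measured were higher (50%) and 2 lower (33.3%), against 17.6% and 13.8% of all genes. Without mixed-marker cells 1 of 3 was higher, namely Ccl5 (33.3%, against 15.1% of all genes), and 0 lower. Ltb, for lymphotoxin beta, which organises lymphoid tissue, stood at 1067 and 649 CPM (1.64, 1.39-1.95), and at 1.40 (1.16-1.70) without mixed-marker cells. Ccl5 was higher (2.51), with 93.4% of its B16 and 98.5% of its LLC UMIs in mixed-marker cells. Il10, the cytokine of regulatory B cells, had 9 UMIs in B16, all in mixed-marker cells, and 0 in LLC. The other regulatory genes and immune ligands gave 1 higher and 4 lower of 7 (14.3% and 57.1%, against 17.6% and 13.8% of all genes). The interval left out 1 for 1 of the 4 lower genes. Without mixed-marker cells it was 0 and 0 of 5. Tgfb1 was at 0.641 (0.463-0.895) and 0.694.

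Hypoxia and glycolysis genes were lower in B16 B cells for 11 of 20 measured and higher for 0 (55% and 0%, against 13.8% and 17.6% of all genes), with a median log2 of -0.90. In cells with under 3 UMIs of other lineages, 123 in B16 and 16 in LLC, the median turned to 0.42. Without mixed-marker cells 3 of 11 were lower (27.3%, against 11.9% of all genes) and 0 higher (-0.27), namely Pfkp, Pgk1 and Aldoa. Pgk1, a glycolytic kinase gene, stood at 252 and 454 CPM (0.556, 0.440-0.704), and at 0.650 without mixed-marker cells, beside 0.654 in other cells. Dissociation stress genes, induced while tissue is taken apart, were higher for 3 and lower for 9 of 23 (13% and 39.1%, against 17.6% and 13.8% of all genes), with a median of -0.21. Without mixed-marker cells it was 2 and 4 of 20 (10% and 20%, against 15.1% and 11.9% of all genes), with a median of 0.07. Dusp1 was lower both ways (0.311, 0.232-0.417, and 0.276), while Fos moved from 0.425 to 0.746 and Jun from 0.562 to 1.07.

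**Figure D5:**
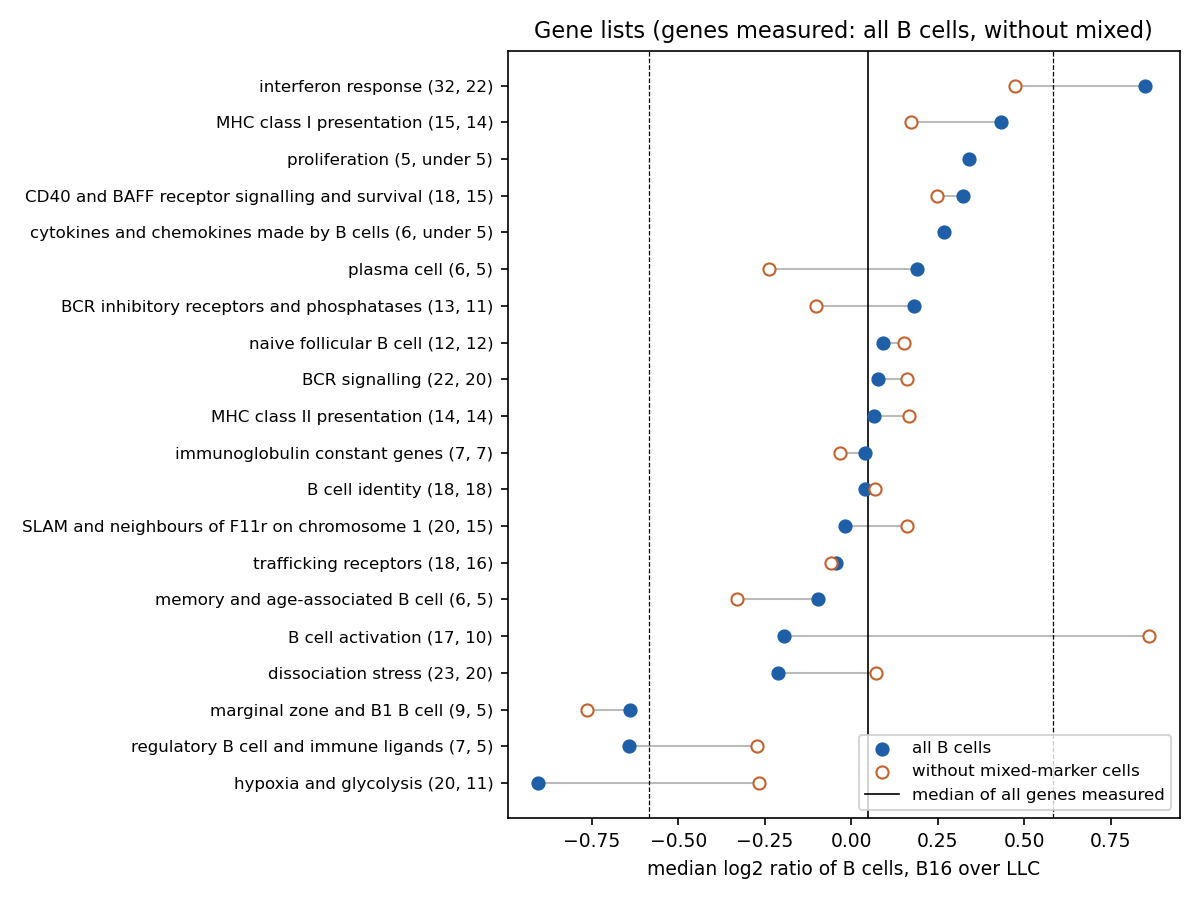
Median log2 ratio B16 over LLC of each gene list with at least 5 measured genes, over all B cells (filled) and without mixed-marker cells (open), with the number of measured genes of each in brackets. The solid line marks the median of all genes and the dashed lines 1.5-fold, and the interferon, hypoxia and activation lists have open points farther from their filled points than the B cell identity, MHC class II and trafficking lists.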

How the data were processed

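Droplet single-cell RNA was read in tumours of 1 LLC and 1 B16 library, each a pool of 3 mice. The authors deposited whole-number UMI counts per gene and cell after filtering; no source used here states the cut-offs, dissociation, sorting or clustering. Per the submitters' processing notes, Cell Ranger and mm10 were used, with versions not given. Cell names are the authors' deposited annotation and were not redone. Doublets were scored in scanpy 1.11.5 but not removed, except in alternatives.

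UMIs were summed over B cells with python 3.11.15, numpy 2.4.6, scipy 1.17.1 and pandas 2.3.3. Shares have Clopper-Pearson, levels Poisson and ratios conditional binomial intervals, exact at 95%. Genes under 20 UMIs, or with 0 UMIs in a whole library, have no ratio, and a ratio against 0 uses a floor of 3 counts. Equal depth means 1000 UMIs drawn per cell, which left out 1 B16 and 2 LLC B cells. The script was tested on simulated data.

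The members and the 22 gene lists were chosen with earlier results of these data known. Named genes are the 15 highest and 15 lowest by the interval bound nearest to 1, at 50 CPM or more in the higher library, leaving out mitochondrial, ribosomal, predicted, antigen receptor, sex-linked, haemoglobin and melanocyte genes; the 15 leading genes over other cells; and list members as examples. The 10 B cell genes per direction, and every setting without mixed-marker cells, were chosen after seeing the data. Results for some genes are not reported here.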

Additional observations from a re-analysis of the deposited data

Results flagged for a closer look

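Some named genes differed by at least 1.5-fold in opposite directions in B cells and in another class, with both intervals leaving out 1. The difference between the classes was not tested. Gzma was at least 21.1-fold higher in B16 among B cells and at 0.435 among naive T cells. Tnfrsf4, for the costimulatory receptor OX40, was at 16.7 in B cells and 0.571 in naive T cells. Gzmb was at 6.23 and 0.626, and Bcl2a1b at 5.80 and 0.619. Mixed-marker cells held 97.7%, 88.5%, 92.3% and 80.5% of the B16 B cell UMIs of these 4 genes, and Gzma is one of the markers that define those cells. Igha went the other way, at 0.515 in B cells, 28.7 in naive T cells and 2.81 in monocytes and macrophages, with 95.5% of its LLC B cell UMIs in 3 cells.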

How the results depend on the processing

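No paired analysis was possible because each tumour is 1 library and no comparison rests on a test. Depth limits every gene under about 20 UMIs over both tumours. The B16 over LLC ratio of the B cell share was 4.09 over all cells and between 3.63 and 4.26 in the 6 settings other than lymphocytes as denominator, where it reversed to 0.350. Counts of genes higher and lower in B16 were 952 and 746. They were 309 and 260 at a minimum of 50 UMIs, 1556 and 1288 at 10 UMIs, 335 and 303 with cells thinned to 1000 UMIs, 588 and 463 without mixed-marker cells, and 459 and 433 in cells with under 3 UMIs of other lineages (123 B16 and 16 LLC cells). Fewer genes reach the minimum in the last 3. Of the lists, 5 had a median past 1.5-fold. That became 2 without top doublet scores, 2 without mixed-marker cells, 3 with the mean of per-cell CPM and 0 in cells with under 3 UMIs of other lineages. In that last setting the hypoxia and glycolysis median reversed to 0.42, and with the mean of per-cell CPM the regulatory median reversed to 0.015; the cause was not tested. Unthinned, shares of cells with a UMI were 79.1% and 79.4% for Ighd and 16.4% and 8.82% for Cd40 in B16 and LLC. Median-of-ratios scaling shifted all genes by 0.05 on the log2 scale.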
